A study of Xenopus laevis with 6 samples.

Results

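The genes described here encode the histones of Xenopus laevis, as measured in total RNA depleted of ribosomal RNA from whole embryos at stage 35. A gene was taken as a member when its product name begins with histone H followed by 1, 2A, 2B, 3 or 4, or holds a histone class name together with the word histone. This gave 158 genes of the 24661 genes with a product name, out of 42638 genes in the count table. The names of 2 further genes, hinfp.L and hinfp.S, match the wording, but they encode a transcription factor of H4 genes and were kept apart. Of the 158 members, 141 were classed as replication-type copies (22 of H1, 39 of H2A, 37 of H2B, 19 of H3 and 24 of H4) and 17 as variants with a type of their own, among them 1 of H1.10, 4 of H2A.X, 3 of H2A.Z, 3 of macroH2A and 4 of H3.3. The classes were taken from product names and symbols. The products of h3-5.L and h2aj.S are named H3.5 and H2A.J, which are not among the listed variant types. Both genes stand among the replication-type copies here, though they may be counted as variants.

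The study set embryos moved after stage 9 to 0.75X MMR (MMR is Marc's Modified Ringer's, a salt solution) against embryos kept in 0.1X MMR, with 3 pools of 10 embryos in each medium. All embryos were kept for 7 days at 14 °C. The comparison asks whether the stronger salt solution, in which the study grows its ectodermal explants, changes transcription in whole embryos. The explants were not analysed here. Each pool mixes all tissues of 10 animals, so that fewer cells of a type and less RNA per cell cannot be told apart. The study describes its replicates in general as drawn from separate batches, but the labels do not say which pools share parents or a batch. The p-values set the difference between the media against the spread between these pools.

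Replication-type histones package the DNA that is newly made in S phase, and their genes lie in clusters of many near-identical copies. Their transcripts are the only known animal mRNAs that end in a stem-loop in place of a poly(A) tail, which is why a library made by depleting ribosomal RNA retains them while selection for poly(A) does not. Variants are encoded by genes outside these clusters for the most part, carry introns and a poly(A) tail in many cases, and are placed into chromatin outside S phase as well. H2A, H2B, H3 and H4 form the core of the nucleosome and H1 binds the linker DNA between nucleosomes. No sequences are shown.

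The deposited values are expected counts, which RSEM estimates per gene by sharing out reads that match several genes. They summed to between 5024957 and 7045215 per pool, and the floor of 3 counts, below which nothing was read as detected, was 0.426 to 0.597 CPM, the count scaled to 1000000 counts per pool. It covers counting error only. Levels below are CPM after TMM normalization. Over all 28075 tested genes edgeR called 5 genes between the media. Marker genes of muscle, neural tissue, blood, lens, kidney, cement gland and multiciliated cells were found, with none of the matched genes at 0. The summed level of 6 liver and gut marker genes was 1669, 1823 and 1958 CPM in 0.75X MMR and 2248, 2015 and 1960 CPM in 0.1X MMR, and that of 3 ionocyte marker genes was 41.7, 40.5 and 33.5 CPM in 0.75X MMR and 55.4, 44.6 and 65.8 CPM in 0.1X MMR. Neither sum overlapped between the media, whereas the sums of the muscle, neural, blood, lens, kidney, cement gland and multiciliated cell markers did. Of all tested genes taken singly, 9.74% did not overlap. The part of these tissues in the histone values was not tested. The listed epidermis names matched 0 genes. All 158 histone members passed the filter on low counts, a CPM over 0.6 in at least 3 samples. This is no separate result, since members were drawn from the study's log CPM values for 24661 genes. The study states the same filter for its own data, yet its log CPM values cover 24661 genes, whereas the filter kept 28075 genes here.

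Replication-type histone RNA was abundant in both media and its total did not separate them. The 141 copies summed to 11093, 11563 and 10933 CPM in 0.75X MMR and to 10380, 12144 and 10486 CPM in 0.1X MMR. The mean was 11196 ± 327 CPM in 0.75X MMR and 11003 ± 989 CPM in 0.1X MMR (SD, n = 3 each), a log2 ratio of 0.03. Both the lowest and the highest pool were in 0.1X MMR, and without the second pool in 0.1X MMR the log2 ratio was 0.10. These copies took 1.03% to 1.21% of all counts of a pool.

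The 17 variant genes took a far smaller share of counts in total. They summed to 1073, 1005 and 1017 CPM in 0.75X MMR and to 1131, 1039 and 1048 CPM in 0.1X MMR, with a log2 ratio of -0.06, and took 0.100% to 0.112% of counts. The ranges of the media overlapped. Replication-type copies held 10.3, 11.5 and 10.8 times the summed CPM of variants in 0.75X MMR and 9.18, 11.7 and 10.0 times in 0.1X MMR. These ratios compare shares of counts and not transcripts, because variant transcripts differ in length and their annotated spans hold introns.

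**Figure D1:**
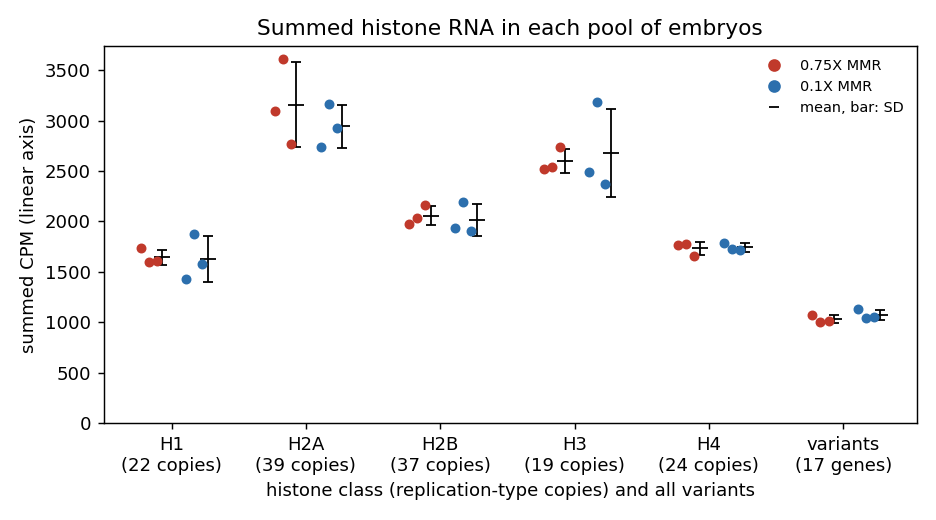
Summed CPM (linear axis, from 0) of the replication-type copies of each histone class and of all variants, with 1 point per pool, 0.75X MMR left of 0.1X MMR, and the mean with its SD (n = 3). H2A is the class with the largest mean sum, the pools of both media overlap in every class, and 1 pool in 0.1X MMR stands high for H3 at 3182 CPM.

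Each class of replication-type histone was measured at a similar sum in both media. H2A, which pairs with H2B in the nucleosome, summed to 3093, 3610 and 2770 CPM in 0.75X MMR and to 2736, 3168 and 2924 CPM in 0.1X MMR. H2B summed to 1980, 2033 and 2158 CPM in 0.75X MMR and to 1938, 2196 and 1904 CPM in 0.1X MMR. In both classes the pools of the media were interleaved, with log2 ratios of 0.10 for H2A and 0.03 for H2B.

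H3 and H4 form the tetramer at the centre of the nucleosome. H3 copies summed to 2524, 2542 and 2739 CPM in 0.75X MMR and to 2486, 3182 and 2371 CPM in 0.1X MMR, and the second pool in 0.1X MMR was the highest of all. H4 copies summed to 1763, 1777 and 1661 CPM in 0.75X MMR and to 1791, 1725 and 1712 CPM in 0.1X MMR. H4 had the smallest spread of the 5 classes in 0.1X MMR, with a coefficient of variation (CV) of 2.43%, against 16.4% for H3, and in 0.75X MMR the CV was 3.65% for H4 and 4.59% for H3. The log2 ratio was -0.04 for H3 and -0.01 for H4, and without the second pool in 0.1X MMR that of H3 was 0.10.

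H1, the linker histones, summed to 1733, 1601 and 1604 CPM in 0.75X MMR and to 1429, 1874 and 1574 CPM in 0.1X MMR, a log2 ratio of 0.02. As with H3, the highest pool was the second in 0.1X MMR. Other RNAs without a poly(A) tail (95 genes of spliceosomal, small nucleolar and similar RNAs) summed to 8368, 8364 and 5590 CPM in 0.75X MMR and to 6777, 5637 and 8129 CPM in 0.1X MMR. Their lowest sums were in the third pool in 0.75X MMR and the second in 0.1X MMR, and this second pool held the highest sum of replication-type histones. Their part in the histone values was not tested.

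A few copies made up much of each class, and most of them lie on chromosome 3S. The 6 loci with 9 or more members, each a run of histone genes with gaps under 500 kb, held 123 of the 141 replication-type copies and 93.2% of their CPM. The 3 loci on chromosome 3S held 43 copies and 64.3% of the CPM, whereas 47 copies on chromosome 9_10L held 15.4%. The median copy on 3S stood at 88.7 CPM, against 20.4 CPM on 9_10L, as shares of counts and not per length. Further copies lay on 5L (21 copies, 9.23%), 9_10S (15 copies, 5.67%) and 5S (11 copies, 5.01%).

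The histone gene with the highest CPM was LOC121402225, an H3 copy at 3S:120616096-120616674 in version 10.1 of the genome. It had 1141, 1209 and 1140 CPM in 0.75X MMR and 1035, 1743 and 1038 CPM in 0.1X MMR. The 3 pools in 0.75X MMR lay close together (CV 3.42%), whereas the second pool in 0.1X MMR stood apart from the other two (CV 32.1%). The fitted log2 fold change was -0.13 (SE 0.15). This copy held 46.1% of the CPM of its class, and per length it stood at 2103 CPM per kb of annotated gene, against 596 CPM per kb for the next H3 copy, LOC121402271 (3S:124252450-124253153).

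Apart from LOC108706197 (H1), the leading copies of the other classes lay in a narrow range per length. LOC121402256 and LOC121402272, both H2A, stood at 647 and 678 CPM per kb, and LOC121402259 and LOC121402228, both H2B, at 519 and 546 CPM per kb. LOC121402241, the highest H1 copy, stood at 556 CPM per kb, and LOC121402233 and LOC121402244, both H4, at 497 CPM per kb each. The next H1 copy, LOC108706197, lies on 5L and stood at 186 CPM per kb. These values of single copies depend on how RSEM shared out reads between near-identical copies. LOC121402237, an H2B copy as long as LOC121402228, stood at 181 CPM per kb. In the repeat on 3S described below, 5 H2A copies together averaged 1411 CPM in each medium. LOC121402225, the only H3 copy annotated there, averaged 1163 CPM in 0.75X MMR and 1272 CPM in 0.1X MMR.

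None of these leading copies separated the media. LOC121402241 had 560, 369 and 335 CPM in 0.75X MMR and 366, 601 and 425 CPM in 0.1X MMR, and 1 pool of each medium stood high. LOC121402256 had 336, 315 and 377 CPM in 0.75X MMR and 367, 342 and 291 CPM in 0.1X MMR, with a log2 fold change of 0.04 (SE 0.10). For LOC121402259 the values were 286, 281 and 333 CPM in 0.75X MMR and 314, 318 and 298 CPM in 0.1X MMR, with a log2 fold change of -0.05 (SE 0.08). Values of both H2A and H2B copies overlapped between the media.

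The highest copies of H3, H1 and H4 belong to a repeat of 5 units on 3S. Each unit holds an H2A copy of 456 bp with an H2B copy of 440 bp starting 768 bp further on, and the H2A starts follow each other at 14093, 14094, 14395 and 14084 bp. An annotated H4 copy starts 1912 bp after the H2A start in unit 2, 1903 bp in unit 4 and 1913 bp in unit 5. LOC121402225 (H3) lies in unit 1 and LOC121402241 (H1) in unit 4. Together the 15 members annotated in the repeat held 36.4% of replication-type CPM.

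The 5 H2A copies of the repeat had the same expected count to 2 decimals in 3 of 6 pools. In the first 2 pools in 0.75X MMR every copy had 1654 and 2079 counts. In the third, LOC121402226 had 130 counts and the other 4 copies had 1525 each. In 0.1X MMR LOC121402246 had 572 counts in the first pool, where the other 4 copies had 1874, LOC121402226 had 1114 in the second, where the others had 2359, and all 5 had 1357 in the third. Every pool had either equal counts for all copies or a lower count for 1 of them.

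The H2B copies had equal counts in 4 of 6 pools. All 5 had 630 and 680 counts in the first 2 pools in 0.75X MMR, and 695 and 838 in the first 2 pools in 0.1X MMR. In the third pool LOC121402228 had 2867 counts in 0.75X MMR and 2539 in 0.1X MMR, while the other 4 copies had 66.4 each in 0.75X MMR and 34.0 each in 0.1X MMR. The third pool in 0.75X MMR was thus the only pool in which both the H2A and the H2B copies had unequal counts.

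**Figure D2:**
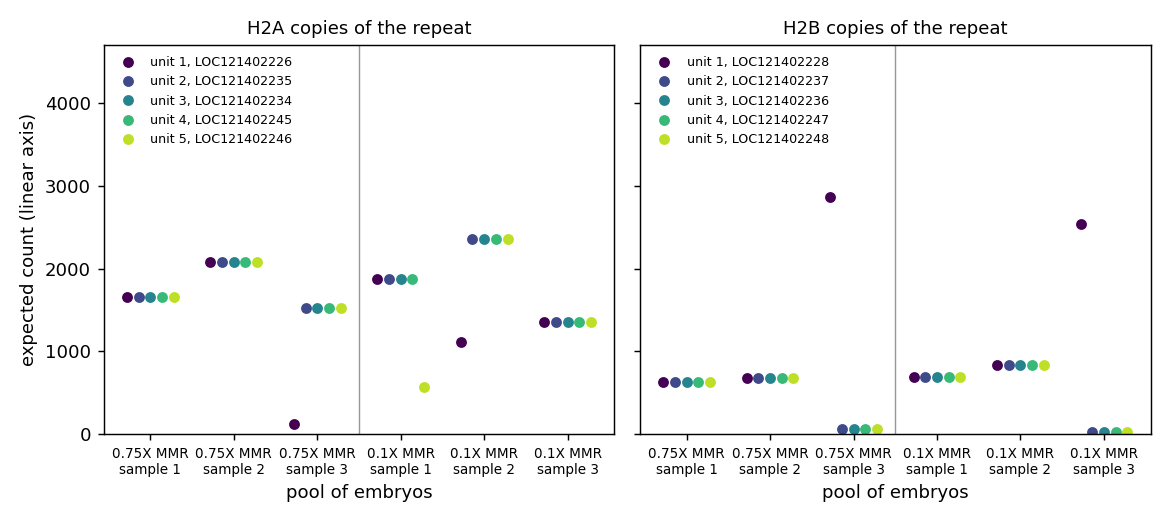
Expected count (linear axis, from 0) of each of the 5 H2A copies and 5 H2B copies of the repeat on 3S in every pool, 0.75X MMR left of the grey line and 0.1X MMR right of it. Points of a pool lie on a level line where the copies had equal counts, and single copies stand off it in 3 pools for H2A and in 2 pools for H2B, such as LOC121402228 at 2867 and 2539 counts.

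Summed over its copies the repeat was steadier for H2B. The 5 H2B copies summed to 522, 603 and 513 CPM in 0.75X MMR and to 496, 682 and 538 CPM in 0.1X MMR, and the CV was 9.16% in 0.75X MMR, against 17.0% in 0.1X MMR. LOC121402228 alone had a CV of 89.1% in 0.75X MMR, against 91.5% in 0.1X MMR, which was the largest among members that averaged at least 50 counts, and a log2 fold change of -0.09 with an SE of 0.56. The 5 H2A copies summed to 1370, 1845 and 1020 CPM in 0.75X MMR and to 1152, 1716 and 1365 CPM in 0.1X MMR, and so still varied between pools as a sum. Neither sum separated the media.

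Equal counts also occurred among H4 copies. LOC121402233 and LOC121402244, 413 bp each, had equal counts in all 6 pools, and so did LOC121402265 and LOC121402262, 423 bp each. Values of such copies are shares of the same reads and not separate measurements.

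Estimated counts that are not whole numbers mark reads that RSEM shared out between genes. Of the values above 0, 98.1% were not whole for replication-type copies and 60.8% for variants, against 45.9% for all tested genes. Among the 141 copies, 132 had such values in all 6 pools. Only h2aj.S, which may also be counted as a variant, had whole counts throughout. The variants h1-10.S, h2ax.L, h2ax.S, h2ax.2.L and macroh2a1.L had whole counts throughout as well, and 10 of the 17 variants had values that were not whole in all 6 pools.

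Copies varied more between pools of a medium than other genes did. For 117 replication-type copies that averaged at least 50 counts, the median CV was 18.8% in 0.75X MMR, against 16.2% in 0.1X MMR. The 17 variants had a median CV of 9.50% in 0.75X MMR, against 8.04% in 0.1X MMR, near the 8.29% and 8.70% of all 16535 genes over the same minimum. The biological coefficient of variation that edgeR fits per gene was also highest for copies, with medians of 12.8% for copies, 8.57% for variants and 8.12% for all genes. These are descriptions without a test, since copies share reads.

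**Figure D3:**
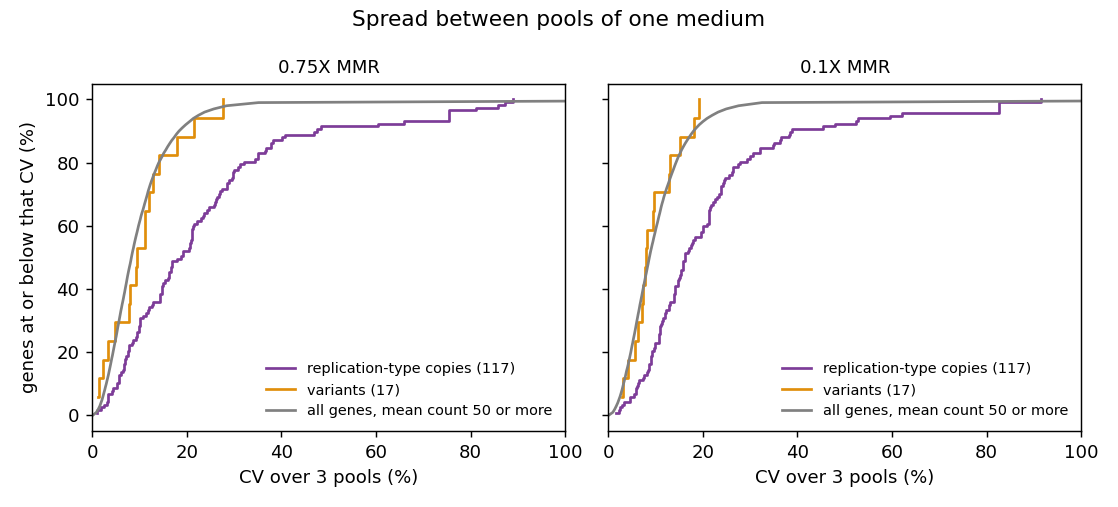
Cumulative share of genes (%) against their CV over 3 pools (%), for 117 replication-type copies, 17 variants and all genes that averaged at least 50 counts, 0.75X MMR left and 0.1X MMR right. At the median the line of the copies lies to the right of the other lines in both media, at 18.8% in 0.75X MMR, against 16.2% in 0.1X MMR.

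As sums the copies were less variable, except for H3 in 0.1X MMR. There the CV of the H3 sum was 16.4%, against a median of 13.1% over its 19 copies. The total of all replication-type copies had a CV of 2.92% in 0.75X MMR, against 8.99% in 0.1X MMR, and the 5 class sums lay between 3.65% and 13.4% in 0.75X MMR and between 2.43% and 16.4% in 0.1X MMR.

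No histone gene passed the test between the media. At an FDR of 0.05 by edgeR's quasi-likelihood test, 0 of 158 members were called, against 0.0178% of all tested genes. limma-voom, with and without surrogate variables, and DESeq2 also called 0 members. At an unadjusted p under 0.05 there were 15 members (9.49%), 12 higher in 0.75X MMR and 3 lower, against 4.39% of all tested genes. DESeq2 gave 7 members, against 1.49% of all tested genes, limma-voom gave 15, against 4.43%, and limma-voom with 2 surrogate variables gave 22, against 4.95%. Leaving out 1 pool, edgeR gave between 11 members without the third pool in 0.1X MMR, against 3.85% of all tested genes, and 25 without the first pool in 0.75X MMR, against 4.13%.

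These 15 members were all classed as replication-type copies, 8 of H2A, 4 of H2B, 1 of H3 and 2 of H4. The 8 of H2A include h2aj.S, which may also be counted as a variant. Since copies share reads, they are not 15 separate measurements. The pools of the media did not overlap for 10 members (6.33%), 7 higher and 3 lower in 0.75X MMR, against 9.74% of all tested genes. The 95% interval of the log2 fold change was taken from limma-voom with medium as the only term, not from edgeR. This interval lay within ±1, a 2-fold difference, for 132 members (83.5%), against 80.6% of all tested genes. It did so for all 17 variants and for 115 of the 141 copies. The shares of members and of all tested genes were not matched for level.

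The fitted differences leaned to higher values in 0.75X MMR among copies and to lower values among variants, with medians close to 0. Of the copies 88 had a positive and 53 a negative log2 fold change, with a median of 0.05, and of the variants 5 were positive and 12 negative, with a median of -0.10. Over all tested genes 49.6% were positive and the median was 0.00. Against genes of like level, 35 members (22.2%), 34 copies and 1 variant, had a fold change outside the range that held the central 95% of all tested genes, 28 above it and 7 below. No test was run on these counts, and copies, which share reads, also varied more between pools of a medium.

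**Figure D4:**
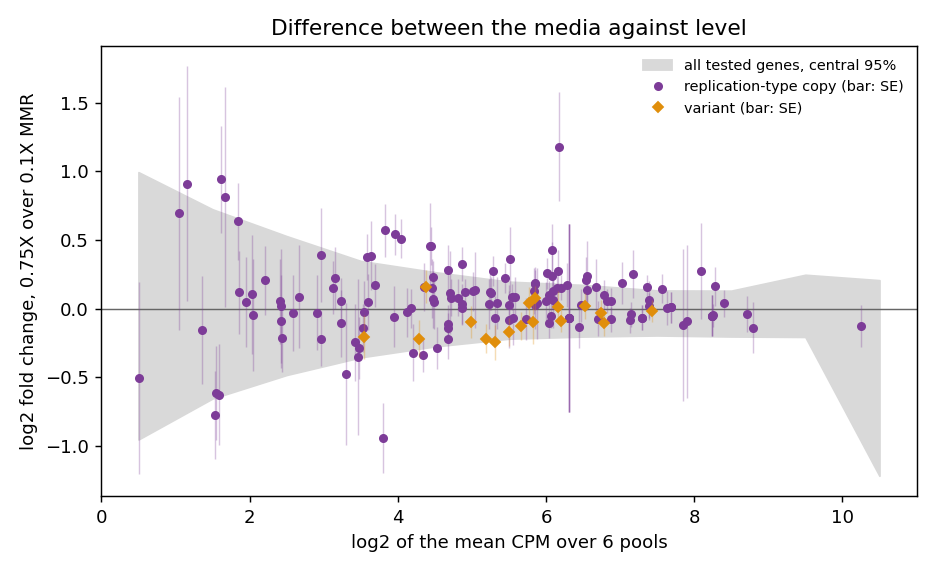
Log2 fold change of 0.75X over 0.1X MMR (bars: SE) against the log2 of the mean CPM for the 141 replication-type copies and 17 variants, over a grey band that holds the central 95% of all tested genes in steps of 1 log2 unit of level. Copies lie between -0.94 and 1.18, 28 of the 158 members lie above the band and 7 below it, and 0 were called.

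Among the copies with the smallest p-values were 3 with higher values in 0.75X MMR. LOC108716547, an H2B copy on 5L, had 19.9, 21.7 and 16.9 CPM in 0.75X MMR and 15.4, 13.1 and 12.3 CPM in 0.1X MMR. LOC108704300, an H2A copy on 9_10S, had 16.7, 22.1 and 16.7 CPM in 0.75X MMR and 13.4, 11.3 and 13.5 CPM in 0.1X MMR. LOC121393617, an H2A copy on 5L, had 26.1, 25.8 and 23.5 CPM in 0.75X MMR and 18.6, 14.5 and 22.3 CPM in 0.1X MMR. The pools of the media did not overlap for any of these 3 genes, which were chosen for their small p-values. Of all tested genes, 9.74% did not overlap either.

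Their log2 fold changes were 0.51 (SE 0.14) for LOC108716547, 0.54 (SE 0.15) for LOC108704300 and 0.46 (SE 0.14) for LOC121393617. The Benjamini-Hochberg adjusted p over all tested genes by edgeR was 0.724 for LOC108716547, 0.724 for LOC108704300 and 0.913 for LOC121393617, so that none passed. Each is a minor copy, far below the leading copies of its class.

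The copies with the smallest p-values and lower values in 0.75X MMR were 2 of H4 and 1 of H2A. LOC121398086 (H4, 9_10L) had 7.40, 8.64 and 12.8 CPM in 0.75X MMR and 25.1, 18.5 and 10.98 CPM in 0.1X MMR, with a log2 fold change of -0.94 (SE 0.26) and an adjusted p of 0.685 by edgeR. LOC108703833 (H4, 9_10L) had 20.4, 16.2 and 16.9 CPM in 0.75X MMR and 23.5, 20.2 and 24.0 CPM in 0.1X MMR. The pools overlapped for both H4 copies. The annotated span of LOC121398086, 9895 bp, also covers the H2A copy LOC121398074 and the H2B copy LOC121398076. For h2ac7.L (H2A, 9_10S) the values were 2.25, 1.43 and 2.63 CPM in 0.75X MMR and 3.61, 2.88 and 4.55 CPM in 0.1X MMR, at 8.07 to 25.2 counts. Its pools did not overlap, as was so for 9.74% of all tested genes.

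The copy with the largest fold change, LOC121402222, an H2A copy at 3S:120419256-120419845, was chosen after its values were seen. It had 1030, 212 and 582 counts in 0.75X MMR, against 479, 196 and 159 in 0.1X MMR, with a log2 fold change of 1.18 (SE 0.39). The pools differed within both media and overlapped between them.

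Summed by place, 3 of 28 loci (10.7%) had pools that did not overlap, a share near the 9.74% of all tested genes. A locus of 8 copies on 5S (5S:6750864-6768164) had 371, 376 and 405 CPM in 0.75X MMR and 332, 355 and 350 CPM in 0.1X MMR, a log2 ratio of 0.15. The other two held 1 gene each, LOC108703940 (H2B), which was higher in every pool in 0.75X MMR, and h3-3b.L, which was lower. The largest locus by number, 46 copies on 9_10L (9_10L:133823061-135159251), summed to 1946, 1635 and 1700 CPM in 0.75X MMR and to 1612, 1728 and 1534 CPM in 0.1X MMR, with 35 of its copies fitted higher and 11 lower in 0.75X MMR. The sums of that locus overlapped. No test was run on sums.

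The pools of the media overlapped for the loci on 3S. The locus with the repeat (3S:120419256-121136695, 20 copies) summed to 4263, 4668 and 3598 CPM in 0.75X MMR and to 3628, 5374 and 3880 CPM in 0.1X MMR. The second locus of 3S, with h2ax.lS included, and the third summed to 1520, 1571 and 1758 CPM and to 1105, 1493 and 1530 CPM in 0.75X MMR, against 1644, 1507 and 1582 CPM and 1372, 1260 and 1383 CPM in 0.1X MMR.

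Among the variants, H3.3 was the type with the largest share of counts. H3.3 replaces H3 outside S phase and is placed at active genes by HIRA and at repeats by DAXX and ATRX. Its 4 genes summed to 395, 397 and 421 CPM in 0.75X MMR and to 450, 388 and 396 CPM in 0.1X MMR. Replication-type H3 held 6.39, 6.40 and 6.51 times that sum in 0.75X MMR and 5.52, 8.20 and 5.98 times in 0.1X MMR. Replication-type H3 here includes h3-5.L, with 150, 132 and 125 CPM in 0.75X MMR and 148, 135 and 149 CPM in 0.1X MMR. Counting h3-5.L as a variant would lower these ratios, and such ratios were not computed. In 0.1X MMR the second pool, with the highest ratio, had the highest sum of replication-type H3 and the lowest sum of H3.3. The lowest ratio was in the first pool, where H3.3 was highest.

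The 4 H3.3 genes took different shares of counts, and none passed the test between the media. LOC108701569 had 166, 173 and 177 CPM in 0.75X MMR and 188, 170 and 164 CPM in 0.1X MMR. LOC108716488 had 106, 97.5 and 114 CPM in 0.75X MMR and 119, 98.1 and 108 CPM in 0.1X MMR. The L homeolog h3-3b.L had 70.6, 70.5 and 72.2 CPM in 0.75X MMR and 78.0, 73.1 and 75.5 CPM in 0.1X MMR. Its log2 fold change of -0.09 (SE 0.08) did not pass the test. h3-3b.L was the only variant whose pools did not overlap (5.88% of variants), against 9.74% of all tested genes. The S homeolog h3-3b.S averaged 55.6 ± 2.67 CPM in 0.75X MMR and 53.9 ± 10.4 CPM in 0.1X MMR.

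**Figure D5:**
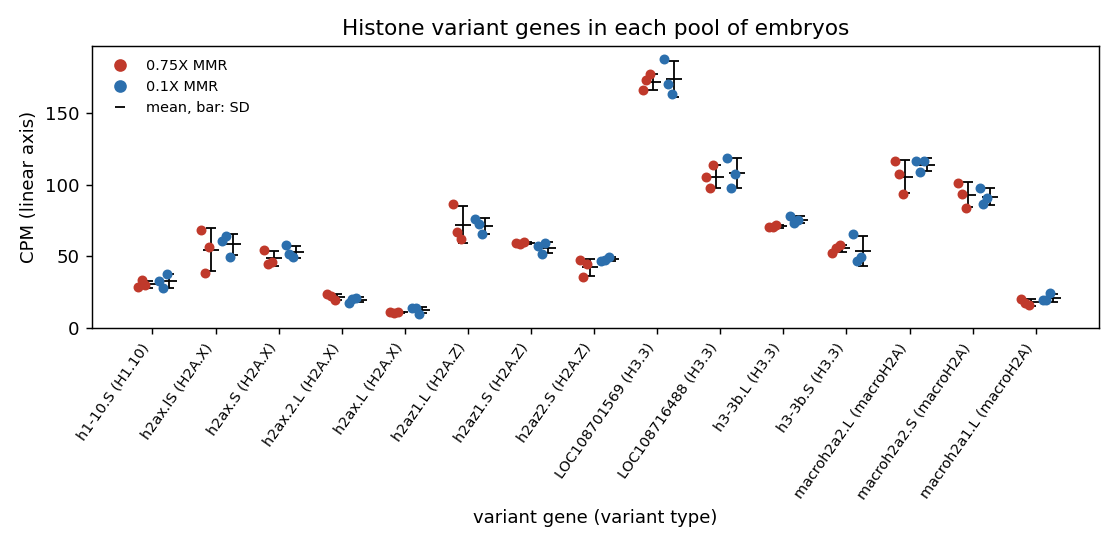
CPM (linear axis, from 0) of 15 variant genes, with 1 point per pool, 0.75X MMR left of 0.1X MMR, and the mean with its SD (n = 3), grouped by variant type. LOC108701569 (H3.3) has the highest CPM, and the pools of the media overlap for every gene shown except h3-3b.L.

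H2A.Z, which marks promoters, was carried by 3 genes. h2az1.L had 86.7, 67.2 and 62.3 CPM in 0.75X MMR and 76.4, 72.4 and 65.5 CPM in 0.1X MMR. h2az1.S had 59.2, 58.4 and 59.9 CPM in 0.75X MMR and 57.2, 51.8 and 59.7 CPM in 0.1X MMR. Each homeolog overlapped between the media, with log2 fold changes of 0.01 (SE 0.12) for h2az1.L and 0.07 (SE 0.09) for h2az1.S. h2az2.S had 47.3, 35.8 and 44.6 CPM in 0.75X MMR and 47.1, 47.4 and 49.6 CPM in 0.1X MMR, with a log2 fold change of -0.17 (SE 0.10).

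macroH2A carries a large domain beside its histone part and is best known from silenced chromatin. macroh2a2.L had 117, 107 and 93.4 CPM in 0.75X MMR and 117, 109 and 117 CPM in 0.1X MMR. macroh2a2.S averaged 93.1 ± 8.66 CPM in 0.75X MMR and 91.7 ± 5.76 CPM in 0.1X MMR. macroh2a1.L was lower than either, at 20.4, 17.4 and 15.9 CPM in 0.75X MMR and 19.3, 19.5 and 24.2 CPM in 0.1X MMR, as a share of counts. The log2 fold changes were -0.11 (SE 0.09) for macroh2a2.L, 0.02 (SE 0.09) for macroh2a2.S and -0.22 (SE 0.13) for macroh2a1.L.

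H2A.X is phosphorylated at DNA breaks, and in frogs a form of it is stored in the egg. h2ax.lS, which lies within a cluster of replication-type copies on 3S, had 68.7, 38.7 and 56.5 CPM in 0.75X MMR and 61.0, 64.2 and 49.9 CPM in 0.1X MMR, with the widest spread of all variants (CV 27.6% in 0.75X MMR). h2ax.S averaged 48.6 ± 5.40 CPM in 0.75X MMR and 52.9 ± 4.30 CPM in 0.1X MMR. h2ax.2.L averaged 22.0 ± 2.09 CPM in 0.75X MMR and 19.7 ± 1.91 CPM in 0.1X MMR, and h2ax.L averaged 10.9 ± 0.24 CPM in 0.75X MMR and 12.5 ± 2.25 CPM in 0.1X MMR. None of these differences passed the test.

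Among linker variants, h1-10.S averaged 30.6 ± 2.46 CPM in 0.75X MMR and 32.9 ± 5.01 CPM in 0.1X MMR.

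Histone genes outside the members, found by their symbols, were few and mostly near 0. Copies with neither a histone symbol nor a product name could not be found. The linker histone of the oocyte, h1-8.L and h1-8.S, had 0 or 1 counts in every pool, below the floor of 3 counts. cenpa.L, the H3 variant of centromeres, had 109, 81 and 78 counts in 0.75X MMR, against 92, 86 and 89 in 0.1X MMR, with a log2 fold change of 0.02.

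Genes of histone supply did not pass the test either. The list holds 19 genes for transcription, 3-prime processing and decay of histone mRNA. Of these, 10 were fitted higher and 9 lower in 0.75X MMR, and 0 were called by edgeR. By the same test 1, slbp.S, had an unadjusted p under 0.05, against 4.39% of all tested genes. SLBP binds the stem-loop of histone mRNA. The other gene of the 2 highest in this list, sympk.S, a scaffold of 3-prime processing, averaged 85.9 ± 4.66 CPM in 0.75X MMR and 88.2 ± 9.14 CPM in 0.1X MMR. slbp.L, the highest, had 129, 120 and 137 CPM in 0.75X MMR and 139, 122 and 135 CPM in 0.1X MMR, and slbp.S, named after its values were seen, had 58.4, 47.6 and 53.2 CPM in 0.75X MMR and 45.3, 43.4 and 39.9 CPM in 0.1X MMR. The homeologs thus had log2 fold changes of -0.04 (SE 0.09) for slbp.L and 0.31 (SE 0.10) for slbp.S. The pools of the media did not overlap for slbp.S, as was so for 9.74% of all tested genes.

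Histone chaperones, which carry histones to DNA, were fitted higher in 0.75X MMR in 29 of 30 genes, with a median log2 fold change of 0.07 and a range of -0.03 to 0.20, against 49.6% of all tested genes fitted higher. None was called by edgeR and 1 had an unadjusted p under 0.05, against 4.39% of all tested genes. Their sum was 2456, 2397 and 2524 CPM in 0.75X MMR and 2305, 2388 and 2373 CPM in 0.1X MMR, without overlap. Of all tested genes taken singly, 9.74% did not overlap either, and no test was run on this sum. The highest, npm1.L (a nucleolar chaperone), averaged 505 ± 23.4 CPM in 0.75X MMR and 484 ± 19.8 CPM in 0.1X MMR, and atrx.L averaged 362 ± 11.7 CPM in 0.75X MMR and 353 ± 26.1 CPM in 0.1X MMR.

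Genes of S phase, when replication-type histones are made, summed to 1482, 1455 and 1443 CPM in 0.75X MMR and to 1514, 1344 and 1412 CPM in 0.1X MMR, with overlap. Of 33 genes 19 were fitted higher and 14 lower in 0.75X MMR, and 0 were called by edgeR. By the same test 1 gene, e2f1.S, had an unadjusted p under 0.05, against 4.39% of all tested genes. rrm1.S, a subunit of ribonucleotide reductase, averaged 149 ± 3.34 CPM in 0.75X MMR and 139 ± 3.50 CPM in 0.1X MMR. The pools of the media did not overlap for rrm1.S, as was so for 9.74% of all tested genes. mcm7.L, a subunit of the replicative helicase, averaged 104 ± 0.39 CPM in 0.75X MMR and 108 ± 12.7 CPM in 0.1X MMR. In 0.1X MMR the lowest S phase sum was in the second pool, which had the highest sum of replication-type histones.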

How the data were processed

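Total RNA of 6 pools of whole embryos was depleted of ribosomal RNA with an Illumina stranded kit (Ribo-Zero Plus) and sequenced in single-end reads. The authors trimmed reads with fastp, aligned them with STAR to version 10.1 of the genome and deposited expected counts per gene from RSEM, not normalized. The second table deposited by the authors holds log2 CPM adjusted for surrogate variables, and was used for product names and to recover 2 surrogate variables, which held 100% of the difference from unadjusted values. 0 columns were left without a sample.

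Counts were rounded to whole numbers and only genes above 0.6 CPM in 3 or more pools were tested (28075 genes). The media were compared with the quasi-likelihood test of edgeR (edgeR 4.0.16, R 4.3.3) with TMM, medium as the only term and Benjamini-Hochberg adjustment over all tested genes. Alternatives were limma-voom (limma 3.58.1), DESeq2 (1.42.0), RLE factors, no filter, a replicate block and leaving out each pool. The test script was tested on simulated data. Sums were compared as values, with no test. CPM per kb used annotated spans from RefSeq of version 10.1, in which all 158 members had an entry. Levels carry counting error and the common biological coefficient of variation was 9.53%.

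Named members are the 2 highest copies of each class, variants with a symbol (1 type is not reported here), called genes, the 3 smallest p-values in each direction and the copy with the largest CV. From the companion lists called genes and the 2 highest were named. Members and lists were chosen with earlier results of these data known.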

Additional observations from a re-analysis of the deposited data

How the results depend on the processing

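The histone genes gave 0 calls under every test, normalization, filter and left-out pool that was run. Over all tested genes edgeR called 5 genes, DESeq2 13, limma-voom with 2 surrogate variables 26 and edgeR without a filter on low counts 34, and the cause was not tested. Leaving out 1 pool gave 1 gene without the first in 0.1X MMR to 10 genes without the second in 0.75X MMR. Same-numbered pools of the media did not deviate together (correlations of -0.024, -0.032 and -0.103). With 3 pools per medium these values cannot decide whether such pools share parents or a batch, which the labels do not give. With the replicate number as a block edgeR called 2 genes and 0 histone genes, with 15 histone genes at an unadjusted p under 0.05. LOC121402233 and LOC121402244 stood at -0.0123 on the log2 scale in limma-voom with 2 surrogate variables, and h2az1.L at -0.00277 in limma-voom without them. Leaving out 1 pool, the log2 fold change ranged from -0.12 to 0.12 for LOC121402233 and for LOC121402244, from -0.14 to 0.11 for h2az1.L, from -0.22 to 0.10 for LOC121402271, from -1.13 to 0.98 for LOC121402228, from -0.40 to 0.0896 for LOC121402241, from -0.0635 to 0.22 for h3-3b.S, from -0.0473 to 0.0926 for macroh2a2.S, from -0.0492 to 0.11 for LOC121402256, from -0.10 to 0.0517 for LOC108706197, from -0.26 to 0.16 for LOC121402225, from -0.00139 to 0.32 for LOC121402272, from -0.21 to 0.000131 for h1-10.S and from -0.30 to 0.10 for h2ax.lS. Leaving out 1 pool, the log2 ratio of the class sums ranged from -0.0666 to 0.13 for H1, from -0.00541 to 0.19 for H2A, from -0.00741 to 0.0982 for H2B, from -0.12 to 0.0997 for H3, from -0.0258 to 0.0224 for H4, from -0.0152 to 0.10 for all replication-type copies and from -0.0859 to -0.0167 for all variants, so that the variants alone kept their sign. Without the copy with the most counts H3 stood at 0.03, and with library size alone H4 stood at 0.01. Counting h3-5.L and h2aj.S as variants, an alternative chosen after seeing the data, left the replication-type sum at 0.03. Of 486 alternative values, 30 fold changes of named genes turned sign, and 5 counts became larger and 5 smaller by over 1.5 times. Depth limits copies with few counts, such as h2ac7.L at 8.07 to 25.2 counts, and shared reads limit single copies at any depth.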
